A study of Mus musculus with 2 samples.

Results

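The genes described here encode the proteasome, the barrel-shaped protease that degrades ubiquitin-tagged proteins, together with the immunoproteasome subunits, activators, inhibitor and assembly chaperones that carry the same gene prefix. They were chosen by name alone, as the protein-coding genes of GENCODE M21 whose symbols begin with Psma, Psmb, Psmc, Psmd, Psme, Psmf or Psmg. The rule took 50 of 21461 nuclear protein-coding genes. Of these, 49 encode proteasome subunits, regulators or chaperones, and Psmc3ip shares only the prefix and encodes a factor of meiotic recombination.

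Total RNA was sequenced in 2 libraries of mouse cells labelled megakaryocyte, the marrow cell that sheds platelets. They came directly from C57BL/6J mice, male and adult at 5 to 6 weeks of age, and the labels give no treatment or allele. The labels name the same donor for both libraries and call them biological replicates 1 and 2, so the spread between them may be partly technical. The isolation procedure is known here only by its title, on erythroid cells and megakaryocytes of bone marrow, and whether animals were pooled is not given in the sources used here. Both libraries belong to 1 group, so the design allows comparisons between genes within a library and between the libraries, and no contrast of conditions. A paired exact test over 2 libraries cannot give a p under 0.5.

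Expected counts, the read counts estimated for each gene, summed to 42703213 in library 1 and 50532821 in library 2. Levels are given in TPM, a share of all transcripts that divides by transcript length, so that genes can be compared with each other. The labelled cell type was not borne out by its markers. Of 14 megakaryocyte and platelet genes, 11 lay under 1 TPM in both libraries, the platelet glycoproteins Gp5 and Gp6 had 0 counts, and the highest were the integrins Itgb3 (5.92 and 5.66 TPM) and Itga2b (3.26 and 4.89 TPM). The list summed to 10.6 and 12.2 TPM. All 12 neutrophil genes stood at 1 TPM or more, led by S100a8 and S100a9, and summed to 14697 and 13876 TPM. All 10 monocyte and macrophage genes did too, led by Lyz2 and Ly6c2, and summed to 7764 and 10163 TPM. The samples are therefore called the libraries labelled megakaryocyte. In RNA from a mixed sample, fewer cells of a type and less RNA per cell cannot be told apart.

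The core particle of the proteasome is a stack of rings. The outer rings are built of alpha subunits, which gate the entrance, and the inner rings of beta subunits, of which Psmb5, Psmb6 and Psmb7 carry the protease sites in most cells. The regulatory particle sits on the core, and its base unfolds substrates with a ring of ATPases, while the lid removes ubiquitin. Under interferon, and constitutively in many blood cells, Psmb8, Psmb9 and Psmb10 take the places of Psmb5, Psmb6 and Psmb7. The resulting immunoproteasome is known for cutting peptides that load onto MHC class I.

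Proteasome genes were broadly expressed. In both libraries 48 of the 50 members reached 1 TPM, against 42.4% of all nuclear protein-coding genes, and 37 reached 10 TPM, against 16.9%. The median member stood at 29.4 TPM in library 1 and 35.6 TPM in library 2. The median over all nuclear protein-coding genes was 0.28 and 0.27 TPM, and over the 9100 of them that reached 1 TPM in each library it was 7.85 and 8.12 TPM. Of the TPM of all nuclear protein-coding genes, the members together took 0.695% and 0.746%. Nuclear protein-coding genes, a set without the genes of the mitochondrial genome, held only 24.0% and 26.8% of all TPM. Rescaling to those genes alone put the median of the members' mean levels at 124.8 TPM rather than 31.7. The 2 members under 1 TPM were Psma8, the alpha subunit of male germ cells, with 63 and 53 counts (0.43 and 0.32 TPM), and Psmb11, the beta subunit of thymic cortical epithelium, with 0 counts. At a limit of 3 counts, Psmb11 could reach 0.00744 TPM in the first library and 0.00656 TPM in the second. This limit and the intervals given for ratios hold counting error alone, because the reads carry no molecular identifiers and several may stem from 1 molecule.

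**Figure D1:**
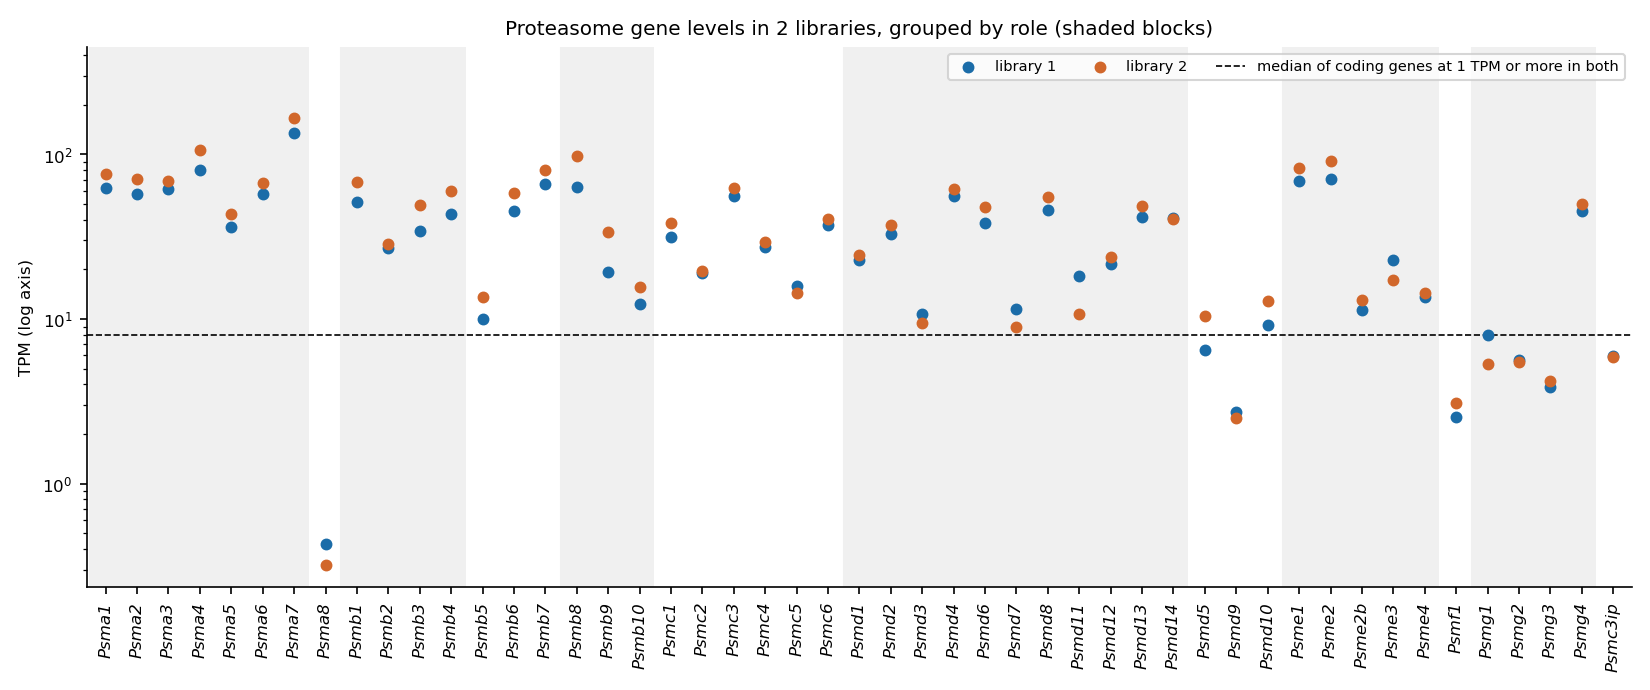
Level of each proteasome gene in TPM (log axis), in library 1 (blue) and library 2 (orange), in blocks by role from the alpha ring on the left to the core chaperones and Psmc3ip on the right. The dashed line is the median of the mean TPM of the 9100 nuclear protein-coding genes at 1 TPM or more in both libraries, 8.04 TPM. Psmb11, at 0 counts, is not drawn.

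All 7 alpha subunits of the ring stood at 10 TPM or more in both libraries. Psma7 was the most abundant of all 50 members, at 135 TPM in library 1 and 168 TPM in library 2. Psma4 followed among the alpha subunits, at 80.2 and 106 TPM. Psma1 stood at 62.5 and 75.9 TPM, Psma3 at 61.3 and 69.1, Psma6 at 57.2 and 66.6, and Psma2 at 57.2 and 71.2. Psma5 was the lowest of the ring, at 36.2 and 43.4 TPM. Over all transcripts the highest alpha subunit was thus 3.72 times the lowest in library 1 and 3.86 times in library 2. The ring holds the subunits in equal number. Psma7 and Psma4 were above the other alpha subunits in each library. The middle 4 were ordered differently in the libraries. These levels include transcripts not annotated as coding, which matters for Psma3. Coding transcripts held only 40.9% and 49.0% of Psma3, as Psma3-204 (22.8 and 29.7 TPM) and Psma3-202 (2.2 and 4.14 TPM). Psma5 was 100% coding, so on coding transcripts alone Psma3 was the lowest of the ring and the spread was wider.

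Of the beta subunits without a protease site, Psmb1 stood at 51.7 and 67.8 TPM, Psmb4 at 43.4 and 59.8, Psmb3 at 34.1 and 49.2, and Psmb2 at 27.1 and 28.4. That order was the same in both libraries. The constitutive protease subunits differed far more from each other. Psmb7, which cuts after basic residues, stood at 66.2 and 80.5 TPM. Psmb6, which cuts after acidic residues, stood at 45.2 and 58.0 TPM. Psmb5, which cuts after hydrophobic residues, stood at only 9.97 and 13.6 TPM and was the lowest of the 14 constitutive core genes in each library. Psmb7 exceeded Psmb5 by 6.64 times (95% counting interval 6.12 to 7.21) in library 1 and 5.93 times (5.55 to 6.34) in library 2.

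The immune protease subunits showed a different order, with Psmb8 first. Psmb8 stood at 63.66 TPM in library 1 and 98.55 TPM in library 2, Psmb9 at 19.2 and 34.0 TPM, and Psmb10 at 12.3 and 15.75 TPM. In both libraries Psmb8 was over Psmb9 and Psmb9 over Psmb10, and the ranges of the 3 genes over the libraries did not overlap. The place of Psmb9 rests on how reads were shared among its transcript models: its complete coding model, Psmb9-204, stood at 5.79 and 8.25 TPM, under Psmb10, and the expected counts of the 2 genes were close, 1317 and 1945 for Psmb9 against 1293 and 1856 for Psmb10. Psmb8 and Psmb9 lie in the MHC region of chromosome 17 beside the peptide transporter genes. Psmb8 spans 34197721 to 34201454 on the plus strand and Psmb9 spans 34181987 to 34187764 on the minus strand (mm10). Psmb10 lies on chromosome 8, 105935735 to 105938444, Psmb5 on chromosome 14, 54614119 to 54618022, Psmb6 on chromosome 11, 70525367 to 70527858, and Psmb7 on chromosome 2, 38588036 to 38644087. In the files the 6 genes are ENSMUSG00000022193 (Psmb5), ENSMUSG00000018286 (Psmb6), ENSMUSG00000026750 (Psmb7), ENSMUSG00000024338 (Psmb8), ENSMUSG00000096727 (Psmb9) and ENSMUSG00000031897 (Psmb10).

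Each immune subunit was then set against the constitutive subunit whose place it takes, and the 3 pairs differed in direction. Psmb8 exceeded Psmb5 by 6.39 times in library 1 (95% counting interval 5.89 to 6.93) and by 7.26 times in library 2 (6.80 to 7.76), a log2 ratio of 2.77 ± 0.13 (SD, n = 2). Psmb9 stood below Psmb6, at 0.424 of its level in library 1 (0.396 to 0.453) and 0.586 in library 2 (0.554 to 0.619), a log2 ratio of -1.005 ± 0.33 (SD, n = 2). Psmb10 stood below Psmb7, at 0.186 of its level (0.175 to 0.198) and 0.196 (0.186 to 0.206), a log2 ratio of -2.39 ± 0.05 (SD, n = 2). Psmb8 made up 86.5% and 87.9% of its pair, Psmb9 29.8% and 36.9%, and Psmb10 15.7% and 16.4%. The order of the pairs was the same in both libraries, and each pair's ratio lay on the same side of 1 in both. On complete coding transcripts alone the order of the lower pairs turned, with log2 ratios of -2.72 and -2.47 for Psmb9 over Psmb6 and -2.17 and -2.15 for Psmb10 over Psmb7.

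Summed over the pairs, the immune subunits held 95.2 TPM against 121.4 TPM for the constitutive ones in library 1, and 148 against 152 TPM in library 2, or 43.9% and 49.4% of the total. The mean log2 ratio over the pairs was -0.21 ± 0.17 (SD, n = 2), with -0.33 in library 1 and -0.09 in library 2. Its sign depends on the length scaling, since on expected counts with no division by length it was 0.11. With protein-coding transcripts alone the mean was -0.29 in library 1 and 0.05 in library 2, so in library 2 the sign also depends on the transcripts counted. The 3 pairs themselves kept their direction in every setting tried.

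**Figure D2:**
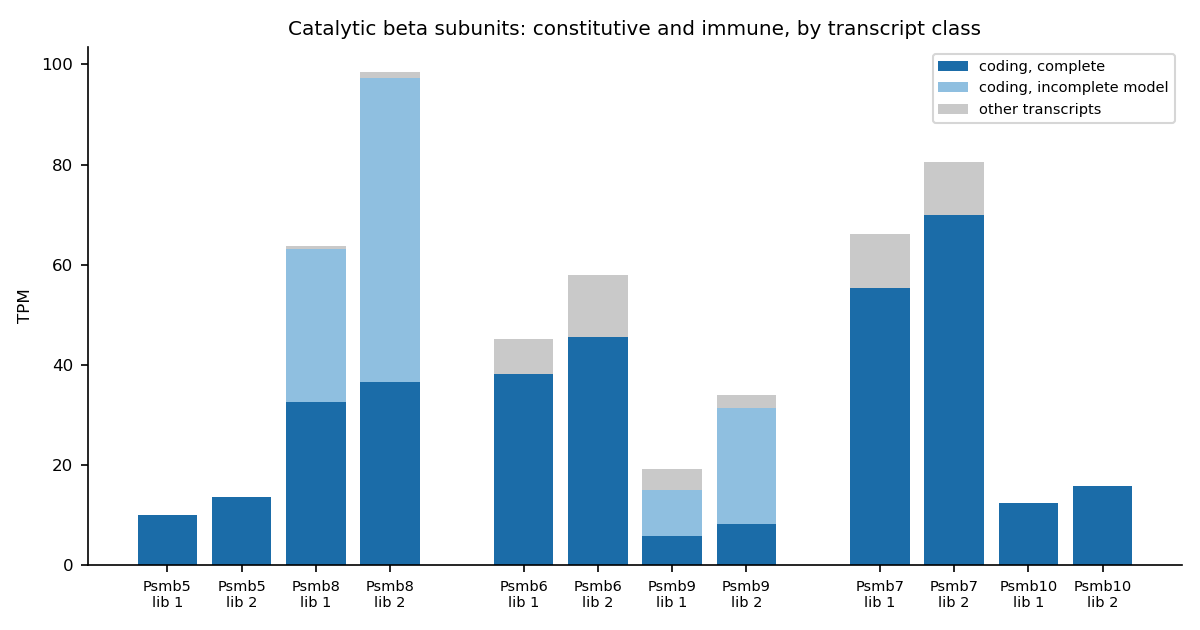
Level in TPM of each constitutive protease subunit beside the immune subunit that takes its place, in libraries 1 and 2. Bars are split into complete protein-coding transcript models (dark), protein-coding models with an incomplete coding sequence (light) and other transcripts (grey). Psmb8 stands above Psmb5, and much of the Psmb8 and Psmb9 bars is light.

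The size of the Psmb8 and Psmb9 ratios rested on how reads were shared among transcript models. Psmb5-201 and Psmb10-201 held 100% of their genes' TPM in both libraries. Psmb8 was divided between Psmb8-201, of 1628 bases, with 51.2% in library 1 and 37.1% in library 2, and Psmb8-203, of 815 bases, with 47.9% and 61.6%. The shorter model is annotated with an incomplete coding sequence, and the leading transcript differed between the libraries. Psmb9 was led in both libraries by Psmb9-202, an incomplete model of only 433 bases, with 48.1% and 68.0%, ahead of the complete model Psmb9-204, of 1351 bases, with 30.2% and 24.3%. The effective length of Psmb9 was 685 bases in library 1 and 502 bases in library 2. Its TPM was 1.77 times as high in library 2, while its scaled counts were 1.24 times as high.

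On complete protein-coding models alone, an alternative chosen after these shares were seen, Psmb8 exceeded Psmb5 by 3.27 times in library 1 and 2.69 times in library 2. On the same models Psmb9 stood at 0.151 and 0.181 of Psmb6. The mean log2 ratio over the 3 pairs became -1.06. On expected counts without length, Psmb8 exceeded Psmb5 by 10.03 and 10.2 times. Psmb6-201 held 84.6% and 78.6% of Psmb6, with 10.9% and 17.1% in Psmb6-202, which retains an intron. Psmb7-201 held 83.7% and 86.85% of Psmb7, with the rest in the intron-retaining Psmb7-202. Psmb9 and Tap1 overlap by 212 bases on opposite strands, and whether counting used the strand is not given in the sources used here, so reads in that overlap are uncertain.

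The promoter windows of the catalytic subunits were read to show the sequence around the RefSeq start sites of the constitutive and the immune genes. Constitutive proteasome genes are known targets of Nfe2l1, which binds antioxidant response elements, and the immune genes of interferon-activated factors. Windows of 300 bases, from 250 before to 50 after the RefSeq start on GRCm38.p6, were found for 42 of the 50 members, 45 windows in all, and for 5 of the 6 catalytic subunits. Capitals mark matches, on either strand, to the antioxidant response element core TGACNNNGC, the CCAAT box CCAAT, the interferon-stimulated response element core (a GAAA repeat with any 2 bases between) or the gamma-activated site TTCNNNGAA. The windows are Psmb5 (chr14:54617946-54618245, minus strand), Psmb6 (chr11:70525107-70525406, plus), Psmb8 (chr17:34197945-34198244, plus), Psmb9 (chr17:34187281-34187580, minus) and Psmb10 (chr8:105938343-105938642, minus), each 5′ to 3′ along its gene. The Psmb8 and Psmb9 windows lie inside the spans that GENCODE M21 gives these genes, whose outermost starts are further upstream, so for these genes the letters do not stand before the annotated gene.
Psmb5: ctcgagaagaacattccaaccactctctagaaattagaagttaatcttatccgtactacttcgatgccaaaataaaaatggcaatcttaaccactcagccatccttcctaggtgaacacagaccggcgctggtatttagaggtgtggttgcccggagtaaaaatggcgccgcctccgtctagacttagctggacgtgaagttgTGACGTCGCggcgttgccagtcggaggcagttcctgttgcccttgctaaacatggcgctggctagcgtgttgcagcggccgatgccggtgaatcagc
Psmb6: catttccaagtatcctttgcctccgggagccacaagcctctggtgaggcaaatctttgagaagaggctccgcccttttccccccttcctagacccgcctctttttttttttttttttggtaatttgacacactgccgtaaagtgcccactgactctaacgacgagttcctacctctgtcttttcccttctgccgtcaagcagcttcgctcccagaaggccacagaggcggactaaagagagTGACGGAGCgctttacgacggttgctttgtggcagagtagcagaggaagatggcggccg
Psmb8: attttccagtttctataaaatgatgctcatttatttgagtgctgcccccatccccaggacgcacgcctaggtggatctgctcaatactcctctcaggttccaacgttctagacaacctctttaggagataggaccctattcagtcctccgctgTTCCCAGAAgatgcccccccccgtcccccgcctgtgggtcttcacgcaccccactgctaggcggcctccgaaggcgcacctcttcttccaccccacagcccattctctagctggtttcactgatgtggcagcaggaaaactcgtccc
Psmb9: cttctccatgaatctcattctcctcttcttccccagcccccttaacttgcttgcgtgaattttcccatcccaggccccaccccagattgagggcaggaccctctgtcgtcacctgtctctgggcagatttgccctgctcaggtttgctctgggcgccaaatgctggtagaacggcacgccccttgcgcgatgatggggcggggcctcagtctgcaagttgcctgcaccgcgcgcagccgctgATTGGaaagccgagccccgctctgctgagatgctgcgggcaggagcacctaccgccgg
Psmb10: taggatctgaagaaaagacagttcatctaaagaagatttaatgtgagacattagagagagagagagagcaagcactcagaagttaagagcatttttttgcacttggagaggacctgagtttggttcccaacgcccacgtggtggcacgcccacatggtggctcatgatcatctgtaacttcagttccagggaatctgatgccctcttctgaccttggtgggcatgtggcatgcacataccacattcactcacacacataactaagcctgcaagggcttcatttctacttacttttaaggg

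In Psmb5 the capitals are TGACGTCGC, which starts at position -47 from the start site, and in Psmb6 TGACGGAGC, at -9. Both match the antioxidant response element core. In Psmb8 they are TTCCCAGAA at -97, which reads as the gamma-activated site on both strands. In Psmb9 they are ATTGG at -8, a CCAAT box on the other strand. The Psmb10 window held none of the 4 motifs. No match in these 5 windows overlapped another motif. The antioxidant core was found in 6 of the 45 windows (13.3%) against 12.4% of all 32851 promoters. The CCAAT box was in 15 (33.3%) against 37.4%, the interferon-stimulated core in 5 (11.1%) against 3.44%, and the gamma-activated site in 3 (6.67%) against 8.30%. Psme1 carried the interferon-stimulated core on the minus strand, as TTTCGCTTTC at position 9. The other windows with this core were those of Psmb3, Psmd4, Psmd9 and Psmg4, and the windows of Psmb8, Psmb9 and Psmb10 lacked it. A match is a description of letters and shows no binding.

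The ATPases that form the base of the regulatory particle had library medians of 29.4 and 34.0 TPM. Psmc3 was the highest, at 56.2 and 62.3 TPM, followed by Psmc6 at 37.5 and 40.7 and Psmc1 at 31.5 and 38.6. Psmc4 stood at 27.3 and 29.5 TPM, Psmc2 at 19.0 and 19.6, and Psmc5, the lowest, at 15.9 and 14.5. Over all transcripts the order of the 6 was the same in both libraries. The place of Psmc3 rests on how reads were shared among its transcript models. Psmc3-210, with an incomplete coding sequence, held 41.6% and 31.4% of its TPM. The complete coding model Psmc3-202 stood at 30.3 and 39.5 TPM, under Psmc6 in both libraries and under Psmc1 in library 1. Like the alpha subunits, these proteins are present in equal number in the complex. Over all transcripts the highest gene was 3.54 and 4.31 times the lowest.

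Among the 11 non-ATPase subunits, the ubiquitin receptor Psmd4 was the highest, at 56.2 and 61.6 TPM. Psmd8 stood at 45.7 and 55.2 TPM, Psmd13 at 41.8 and 48.3, and Psmd6 at 38.3 and 48.0. Psmd14, the lid protease that removes ubiquitin chains, stood at 41.2 and 40.7 TPM, while Psmd7, which pairs with it, stood at 11.4 and 8.92 TPM. The large scaffold subunits Psmd2 and Psmd1 stood at 33.0 and 37.3 TPM and at 22.8 and 24.6 TPM. The lid subunits Psmd12, Psmd11 and Psmd3 stood at 21.5 and 23.8 TPM, 18.3 and 10.7 TPM, and 10.7 and 9.49 TPM. The highest was 5.25 times the lowest in library 1 and 6.90 times in library 2. Over all 17 regulatory particle genes the library medians were 31.5 and 37.3 TPM. The 14 constitutive core genes had medians of 54.5 and 67.2 TPM, which is 1.73 and 1.80 times as high. The ranges of the particles overlapped, from 9.97 to 135 TPM for the core and from 10.7 to 56.2 TPM for the regulatory particle in library 1.

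The activators cap the core in place of the regulatory particle. Psme1 and Psme2, the interferon-inducible pair that assembles into a ring, stood at almost the same level over all transcripts. Psme1 stood at 68.5 and 82.8 TPM and Psme2 at 71.0 and 91.4 TPM. The ratio of Psme2 to Psme1 was 1.04 (95% counting interval 0.996 to 1.08) in library 1 and 1.10 (1.07 to 1.14) in library 2. The interval thus included 1 in library 1 and not in library 2. Psme1-209, a model of 439 bases annotated for nonsense-mediated decay, held 13.9 and 17 TPM of Psme1 from 303 and 398 counts. Coding transcripts held 73.3% and 73.2% of Psme1 and 94.2% and 93.3% of Psme2. On coding transcripts alone Psme2 therefore stood further above Psme1 in each library. These genes are neighbours on chromosome 14, Psme1 at 55578123 to 55581529 on the plus strand and Psme2 at 55587441 to 55591113 on the minus strand. Psme3, the nuclear activator, stood at 22.75 and 17.2 TPM, and Psme4, a large activator known from histone turnover in germ cells, at 13.65 and 14.5 TPM. Psme1 exceeded Psme3 by 3.01 times (2.89 to 3.14) and 4.81 times (4.63 to 4.99). These ratios are over all transcripts. Psme3-203, a processed transcript, held 37.1% and 10.6% of Psme3, while the coding Psme3-201 stood at 14.3 and 15.4 TPM. Psme2b, a near copy of Psme2, was listed at 11.3 and 13.1 TPM, which is uncertain because reads may be split between the copies. The inhibitor Psmf1 stood at 2.55 and 3.10 TPM.

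The assembly chaperones, which leave the finished particle, were lower with 1 exception. Psmg1 and Psmg2, a dimer that starts the alpha ring, stood at 8.00 and 5.30 TPM and at 5.64 and 5.49 TPM. Psmg3 and Psmg4 form the other dimer, yet Psmg3 stood at 3.86 and 4.19 TPM and Psmg4 at 45.3 and 49.99 TPM, a ratio of 11.7 and 11.9. The effective length of Psmg4 was only 294 and 284 bases, and of Psmg3 734 and 776 bases. In expected counts Psmg4 had 1335 and 1620 and Psmg3 284 and 370. The chaperones of the base, Psmd10, Psmd5 and Psmd9, stood at 9.21 and 12.9 TPM, 6.46 and 10.5 TPM, and 2.73 and 2.49 TPM. Psmc3ip, outside the complex, stood at 5.98 and 5.88 TPM.

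Most members gave mainly protein-coding transcripts, with a few exceptions. Among the 45 members at 5 TPM or more in both libraries, the median share of TPM in protein-coding transcripts was 97.4% in library 1 and 98.1% in library 2, and 31 were at 90% or more in both. For Psma3 the share was only 40.9% and 49.0%. Its leading transcript was Psma3-201, annotated for nonsense-mediated decay, with 44.5% in library 1, and the protein-coding Psma3-204, with 43.0%, in library 2. Psmd13 had 39.6% and 41.35% coding, and its leading transcript in both libraries was Psmd13-207, which retains an intron, with 33.2% and 31.8%. Psmc3ip changed its leading transcript from Psmc3ip-201, coding, with 50.15%, to Psmc3ip-202, with a retained intron and 43.4%. Psmd11 was led by Psmd11-213, of incomplete coding sequence, with 31.2% in library 1 and by Psmd11-201 with 37.5% in library 2. Psme3 had 62.9% coding in library 1 and 89.4% in library 2, and Psmg1 50.75% and 94.3%, the rest of Psmg1 lying in transcripts not matched to GENCODE M21, while Psme1 had 73.3% and 73.2%. With protein-coding transcripts alone, the median of the regulatory particle was 25.4 TPM rather than 35.1, as a mean over the libraries.

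**Figure D3:**
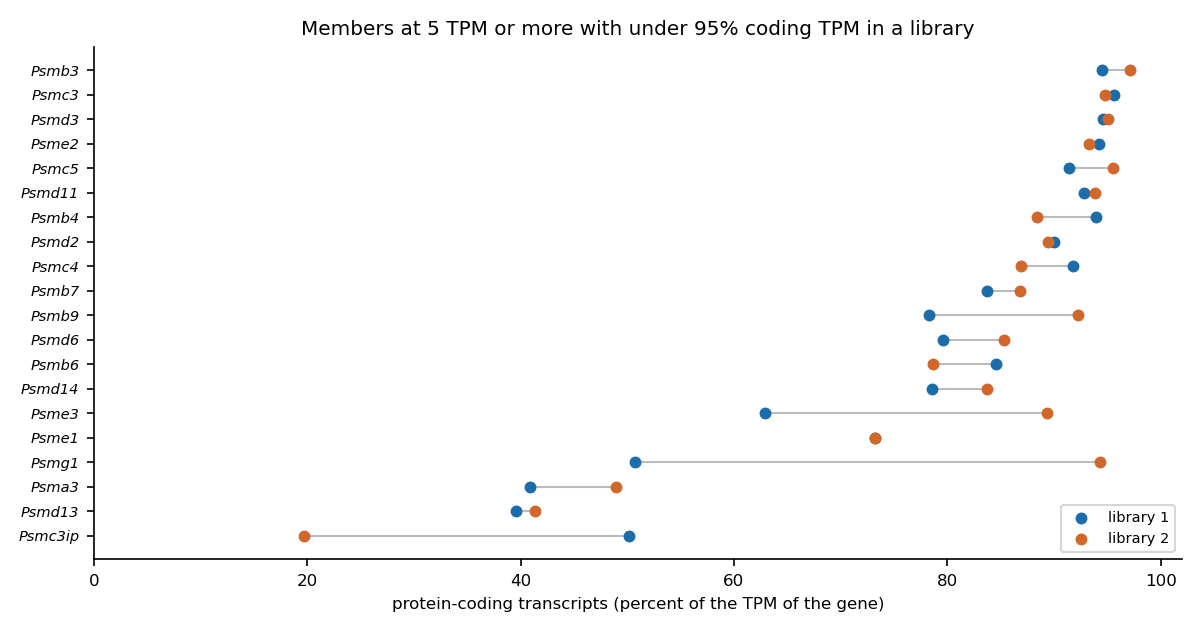
Share of each gene's TPM in protein-coding transcripts (percent), in library 1 (blue) and library 2 (orange), for the 20 members at 5 TPM or more in both libraries with a share under 95% in either. Psma3 and Psmd13 lie under 50% in both, and Psmg1, Psme3 and Psmc3ip differ most between the libraries.

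The libraries were compared gene by gene to show how far the members' levels repeat. This compares 2 libraries of 1 group, not conditions, and rests on counting error alone. By a two-sided exact binomial test on scaled counts, with Benjamini-Hochberg adjustment over 12081 genes at 0.05, 37 of 49 tested members differed. Library 2 had the higher count for 29 of them and library 1 for 8. Among all genes tested 65.3% differed, with 32.9% higher in library 2 against 32.4% in library 1. Of the 9100 genes that reached 1 TPM in each library, the shares were 34.7% and 31.7%. The count of members that differed was thus near the background, and 29 of 49 higher in library 2 stood beside 32.9%. In scaled counts only 1 member reached 1.5-fold, against 17.9% of all genes tested, and 5.04% of the 9100 genes that reached 1 TPM in each library. In TPM, which also moves with the effective length, 5 members did, against 9.2% of those 9100 genes. They were Psmb9 (1.77 times in library 2 over library 1), Psmd5 (1.62), Psmb8 (1.55), Psmg1 (0.662) and Psmd11 (0.585). Complete coding models differed less for some: Psmb8-201 stood at 32.6 and 36.6 TPM, and Psmg1-201 at 4.06 and 5. Psmd11-201 stood at 3.52 and 4.01 TPM and Psmd11-214 at 3.13 and 2.27. The incomplete models Psmd11-213 and Psmd11-205 stood at 5.69 and 2.84 TPM and at 4.6 and 0.79 TPM. With an assumed biological coefficient of variation of 0.1, edgeR's exact test called alone the member that reached 1.5-fold in scaled counts, against 12.9% of all genes and 4.21% of the 9100.

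The member called was Psmd5, a chaperone of the base, on chromosome 2, 34849734 to 34874968. It had 1184 counts in library 1 and 2147 in library 2, and was 1.53-fold higher in library 2 (log2 ratio 0.61, 95% counting interval 0.51 to 0.72, exact binomial adjusted p = 2.8e-31). Psmd10, another chaperone of the base, had a log2 ratio of 0.41 (0.30 to 0.52), while Psmd9 was higher in library 1, with -0.20 (-0.36 to -0.04).

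In the core the calls went one way. Of the 14 constitutive core genes, 13 were higher in library 2 and none in library 1. Among all genes tested 32.9% were higher in library 2, and among genes under 1000 bases, the class of 13 of these 14, 49.0% were. The exception, Psmb2, had a log2 ratio of -0.03 (95% counting interval -0.12 to 0.07). The largest ratios were those of Psmb3 (0.40), Psmb5 (0.36), Psma4 (0.32) and Psmb1 (0.31), and the smallest called was that of Psma6 (0.14). All 3 immune subunits were also higher in library 2, Psmb8 by 0.39, Psmb9 by 0.32 and Psmb10 by 0.27 on the log2 scale. Their ratios thus lay within the range of the constitutive core.

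Regulatory particle genes went both ways. Of the 17, 8 were higher in library 2, 4 higher in library 1 and 5 did not pass. Among all genes tested, 32.9% were higher in library 2 and 32.4% in library 1. The 4 higher in library 1 were Psmd7 (log2 ratio -0.43), Psmd11 (-0.42), Psmc5 (-0.21) and Psmd3 (-0.18). Psmd7 had 1576 counts in library 1 and 1385 in library 2, and Psmd11 2195 and 1944, against totals that were larger in library 2. The highest ratios were those of Psmd6 (0.29) and Psmc1 (0.22). Those that did not pass were Psmc2, Psmc4, Psmc6, Psmd4 and Psmd14, with log2 ratios from -0.03 to 0.05. Psmd1 passed narrowly (log2 ratio 0.05, exact binomial adjusted p = 0.0499) and did not pass with no scaling factor (0.175), with no count filter (0.0511) or among genes at a mean of 100 counts or more (0.0752).

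Of the remaining members, Psme1 (0.21), Psme2 (0.24) and Psme4 (0.08) were higher in library 2. Psme3 (-0.10), Psmg1 (-0.42) and Psmc3ip (-0.42) were higher in library 1, and Psme2b, Psmf1, Psmg2, Psmg3, Psmg4 and Psma8 did not pass. The direction of Psmg1 holds only over all its transcripts. A model not matched to GENCODE M21 held 180 counts in library 1 and 0 in library 2. The coding Psmg1-201 had 334 and 461 counts, or 4.06 and 5 TPM, and was higher in library 2.

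**Figure D4:**
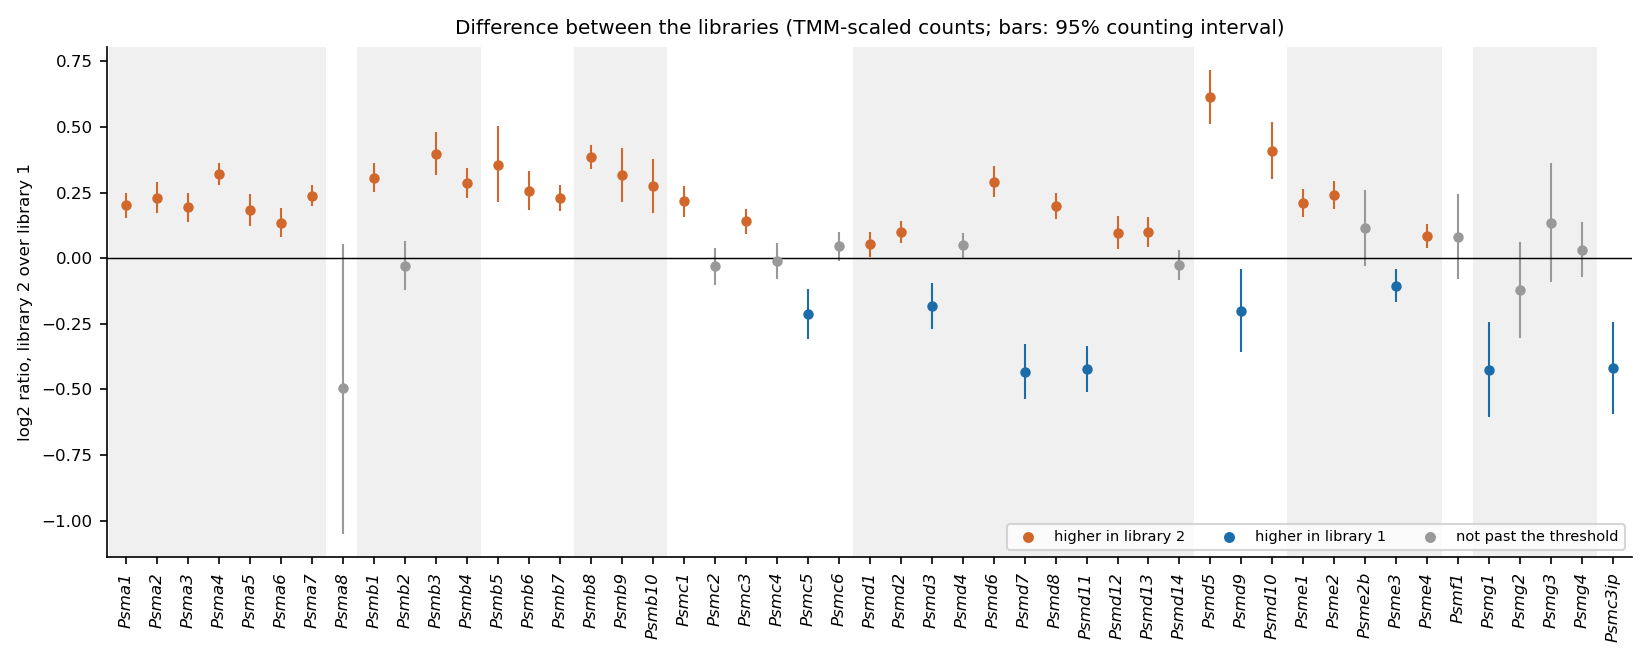
Log2 ratio of scaled counts, library 2 over library 1, for the 49 members tested, in blocks by role, with 95% counting intervals as bars. Orange points were higher in library 2, blue points higher in library 1 and grey points did not pass. The alpha ring and the immune subunits lie above 0, and Psmd5 is the highest point at 0.61.

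Gene length moved with these ratios. Per the labels, library 1 had a size range of 221 to 1000 nucleotides and library 2 one of 200 to 1000, from 100 ng of RNA each. Among genes that reached 1 TPM in each library, 49.0% of the 1511 with an effective length under 1000 bases were higher in library 2 and 19.7% higher in library 1. From 1000 to 2000 bases the shares were 41.9% and 22.9% of 2626 genes, and from 2000 bases up 26.6% and 40.1% of 4963. Of the 14 constitutive core genes, 13 lay in the shortest class and 12 of those were higher in library 2. The regulatory particle had 15 of its 17 genes in the middle class, 6 higher in library 2 and 4 in library 1. Cell type markers moved too. By the exact binomial test, 9 of 10 monocyte and macrophage genes were higher in library 2, and 10 of 12 neutrophil genes were higher in library 1. Among all genes tested, 32.9% were higher in library 2 and 32.4% in library 1 by that test. Of the dendritic cell genes, led by Irf8 and Cd74, 6 of 8 were higher in library 2, while 8 of 9 erythroid genes, led by Hba-a2 and Hbb-bt, and 7 of 10 T and NK cell genes, led by Gzma and Cd3g, were higher in library 1. Those lists summed to 210 and 257 TPM, 124 and 62.2 TPM, and 33.5 and 19.9 TPM. The B cell list, led by Ighm and Cd79b, summed to 86.5 and 93.3 TPM. The part of length, size selection and cell mixture in the members' ratios was not tested.

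Other parts of the proteasome lie outside the gene prefix. All 10 genes of a list of further subunits, assembly factors and bound enzymes stood at 1 TPM or more. Pomp, which matures the beta rings, stood at 108 and 129 TPM, above every member except Psma7. Sem1, the small lid subunit, stood at 73.55 and 82.9 TPM, Zfand5 at 25.55 and 24.4, Uchl5, a bound deubiquitinase, at 19.75 and 24.5, and Txnl1 at 16.3 and 17.3. By the same test 4 were higher in library 2 and 3 in library 1, beside 32.9% and 32.4% of all genes tested.

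The transcription factors of proteasome genes and the enzymes that process them were moderate. Of 10 genes, 9 stood at 1 TPM or more, led by Nfe2l2 (23.4 and 22.3 TPM), Nfyb (19.2 and 19.7), Mafg (16.9 and 16.1), Nfyc (16.4 and 15.2) and Ddi2 (11.6 and 10.4), the protease that activates Nfe2l1. Maff stood under 1 TPM, at 0.28 and 0.39. In this list 2 of 10 were higher in library 2 and 3 in library 1, beside the same shares of all genes.

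The interferon pathway that induces the immunoproteasome was present throughout, with all 12 genes at 1 TPM or more. The factor Irf8 stood at 71.7 and 77.4 TPM, the receptor chains Ifnar2 at 70.6 and 70.5 and Ifngr1 at 58.8 and 66.0, and the kinase Jak1 at 24.5 and 25.5. Of these 12, 5 were higher in library 2 and 3 in library 1, beside the same 32.9% and 32.4%. Among 11 genes of MHC class I presentation, all at 1 TPM or more, the highest were B2m (755 and 748 TPM), H2-D1 (259.9 and 308), Calr (207 and 227), Canx (170.4 and 188) and H2-K1 (106 and 123). There 7 of 11 were higher in library 2 and 1 in library 1, beside 32.9% and 32.4% of all genes tested. The transporter genes beside Psmb8 and Psmb9 were lower than Psmb8, Tap1 at 25.1 and 26.7 TPM and Tap2 at 8.50 and 9.87 TPM. Their log2 ratios between libraries were 0.12 and 0.17, against 0.39 for Psmb8 and 0.32 for Psmb9.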

How the data were processed

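The authors deposited a gene table and a transcript table for each library, mapped to mm10 with GENCODE M4 per the text deposited with them. For the aligner, quantifier and use of strand, nothing is stated in the sources used here. The deposited expected counts are estimated and not normalized. The authors' TPM and FPKM divide by effective length, and TPM runs over all rows of a table. The deposited isoform percent gives each transcript's share of its gene's TPM. Other deposited columns, an interval for TPM among them, are of unstated level and were not printed. Each ratio and log2 value was computed here from the deposited columns.

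GENCODE M21 supplied gene symbols, types and positions (42462 of 43346 mouse gene IDs matched), and RefSeq the promoters. The members and all lists were chosen with earlier results of these data known. Every member is named, and from each other list the 5 highest by mean TPM (2 for cell markers) and any under 1 TPM. Some genes under this rule are left unnamed but still counted in their lists. Among transcripts, those that lead a catalytic subunit are named, and those of members at 5 TPM or more that differ between libraries or are not coding. Some others that bear on a member's level are named too. Counts were rounded and scaled by TMM (edgeR 4.0.16, R 4.3.3). Each gene with a mean count of 10 or more was compared between libraries by an exact binomial test (scipy 1.17.1), which was tested on simulated data. DESeq2 1.42.0 size factors were an alternative. Ratio intervals are exact and for counting error only. With 1 library a side, edgeR's quasi-likelihood test has no residual degrees of freedom.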

Additional observations from a re-analysis of the deposited data

How the results depend on the processing

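No paired analysis was possible because the libraries form a single group, so no groups share replicate numbers. Leaving out each library gave log2 ratios of 2.67 to 2.86 for Psmb8 over Psmb5, -1.24 to -0.77 for Psmb9 over Psmb6, -2.42 to -2.35 for Psmb10 over Psmb7 and -0.33 to -0.09 for their mean. It gave medians of 29.4 to 35.6 TPM for all members, 54.5 to 67.2 for the constitutive core and 31.5 to 37.3 for the regulatory particle, and 48 members at 1 TPM or more each time. On expected counts without length the log2 ratios were 3.34 for Psmb8 over Psmb5, -2.10 for Psmb10 over Psmb7 and 0.11 for the mean over pairs, which changed sign. On complete coding transcripts, added after the data were seen, they were 1.57, -2.60 for Psmb9 over Psmb6, -2.16 for Psmb10 over Psmb7 and -1.06 for the mean. Psmb10 over Psmb7 was -2.16 on all coding transcripts and -2.31 with log2(TPM + 1). Rescaling TPM to nuclear protein-coding genes gave medians of 124.8 for all members, 238.8 for the constitutive core and 137.7 for the regulatory particle. FPKM gave 72.9, 139.7 and 80.5. Coding transcripts alone, and complete ones alone, gave 26.5 for all members and 25.4 for the regulatory particle. The 37 members that differed between libraries became 1 with edgeR at an assumed coefficient of variation of 0.1 and 1 at 1.5-fold in scaled counts, and 5 at 1.5-fold in TPM, the last added after the data were seen. They remained 36 or 37 in number with other scaling or filters.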

Other observations

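The proteasome sits downstream of ubiquitin tagging, and genes of that route were also measured. Among 9 ubiquitin genes and ubiquitin-activating or -conjugating enzymes, all at 1 TPM or more, abundant members were the polyubiquitin gene Ubb (262 and 229.8 TPM in libraries 1 and 2), the ribosomal fusion gene Rps27a (181 and 222), and the conjugating enzymes Ube2d3 (133 and 129.9) and Ube2l3 (114 and 122). By the exact binomial test 3 were higher in library 2 and 4 in library 1, beside 32.9% and 32.4% of all genes tested. Among 10 factors that carry or extract tagged proteins, 9 stood at 1 TPM or more, led by the segregase Vcp (38.15 and 45.3 TPM), Rad23b (20.2 and 22.8), the Vcp cofactor Nsfl1c (17.6 and 16.9), Ubqln1 (14.85 and 14.7) and Ufd1 (15.9 and 13.3). The shuttle factor Ddi1 had 0 counts. In this list 2 were higher in library 2 and 4 in library 1, beside the same shares.

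The members lie on 16 chromosomes, with 10 on chromosome 11 and 6 each on chromosomes 2 and 14. Of the 50, 24 overlap another annotated gene and 13 a protein-coding one, where reads may be uncertain. The 4 annotated pseudogenes of beta subunits, Psmb5-ps, Psmb6-ps, Psmb6-ps2 and Psmb7-ps2, had 0 counts in both libraries.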
